A study of Mus musculus with 4 samples.

Results

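Tslp, Il33, Il6, Il11, Lif, Csf1 and Il1rn encode 6 cytokines and 1 cytokine inhibitor that mammary fibroblasts can secrete, and their transcript levels were followed in the 4 arrays of the series. Every probe set that the array annotation pairs with exactly 1 gene, and with 1 of these symbols, was taken. This gave 13 probe sets for the 7 genes, out of 12394 genes that have at least 1 probe set of their own. The 7 genes were chosen with their values in these arrays known, so their levels and differences are a description and carry no test.

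The RNA came from fibroblasts isolated from the mammary glands of FVB/N mice aged 9 weeks by gravity separation and grown in DMEM with serum, at the second passage according to the methods of the study. Normal Ets2-present fibroblasts had the genotype Ets2db/loxP and normal Ets2-null fibroblasts Fsp-cre;Ets2db/loxP. PyMT Ets2-present fibroblasts had the genotype PyMT;Ets2db/loxP and PyMT Ets2-null fibroblasts PyMT;Fsp-cre;Ets2db/loxP. The db allele, carried by all 4 groups, lacks the DNA-binding domain of Ets2, so the Ets2-present cells had 1 intact copy, and Cre, driven by the Fsp promoter, was carried by the Ets2-null groups only. PyMT is a viral oncogene expressed in the epithelial cells of the gland, not in the fibroblasts, and the cultured cells were therefore compared after removal from that surrounding. Each group had 1 array (n = 1), and whether its RNA came from 1 animal or a pool is not stated outright. A difference between groups is thus a difference between 2 arrays with no replicate error, and Ets2 loss cannot be told apart from the presence of Cre.

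All 4 arrays had fibroblast transcripts at high level, with Col1a1 between 12.81 and 13.11 and Vim between 13.15 and 13.41 on the log2 scale of RMA, the method by which the authors summarised the probes of a probe set. The probe set of Ets2 read 11.86, 11.89, 11.21 and 11.22, in the array order used below for any 4 values: normal fibroblasts with and without Ets2, then PyMT fibroblasts with and without it. Where it lies relative to the deleted part of the gene is not known, so it checks nothing about the deletion. The study reported loss of ETS2 protein by Western blot, and of phospho-Ets2 staining, in fibroblasts of the PyMT Ets2-null genotype. The PyMT Ets2-null array stood somewhat apart, with correlations of 0.959 to 0.969 to the others, which had 0.970 to 0.985 among themselves. The 3 control probe sets for 18S ribosomal RNA were highest in this array, the 3′ one at 9.05 against 6.44 to 6.75 and the middle one at 13.53 against 12.47 to 12.56. This array enters every Ets2 difference in PyMT fibroblasts and every PyMT difference without Ets2, and the part of its 18S signal in them was not tested. Among the 7390 probe sets that stayed under the filter level in all arrays, the median difference was 0.15 between the 2 PyMT arrays and 0.146 between the 2 Ets2-null arrays. A gene was read from its brightest probe set, and 8687 genes whose highest array reached the 40th percentile of all values, a log2 level of 4.63, were kept. All 7 cytokine genes and 12 of their 13 probe sets were kept.

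Tslp acts through a receptor made of Crlf2 and Il7r on dendritic cells, mast cells and other cells of type 2 immunity. Il33, a nuclear member of the IL-1 family that is released from damaged cells, acts on the same kind of responses. Il6, Il11 and Lif belong to the IL-6 family, whose receptors share the signalling chain Il6st (gp130) and act through JAK kinases and Stat3. Csf1 keeps macrophages alive through Csf1r, and Il1rn occupies the IL-1 receptor Il1r1 without activating it. Fibroblasts are a known source of these proteins in wounds and in tumour stroma.

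The PyMT Ets2-present array was the highest or the lowest of the 4 for all 7 genes. Tslp, Il11, Lif and Csf1 were highest there, 4 of 7 genes, where 22.8% of all kept genes had their highest level. Il33, Il6 and Il1rn were lowest there, 3 of 7 genes, against 22.9% of all kept genes. For Il33 that place rests on 0.004 log2 units, so its 2 PyMT arrays were level, and the margins of the other genes ran from 0.23 for Il6 and 0.32 for Lif to 4.60 for Tslp. To give a scale for such margins, the brightest and the next brightest probe set of 3378 genes were compared. Their estimates disagreed with an SD of 0.48 for the Ets2 difference in normal fibroblasts, 0.68 for that in PyMT fibroblasts, 0.51 for the PyMT difference with Ets2 and 0.70 without it. This disagreement covers probe effects and noise of the arrays and not the spread between cultures or animals.

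**Figure D1:**
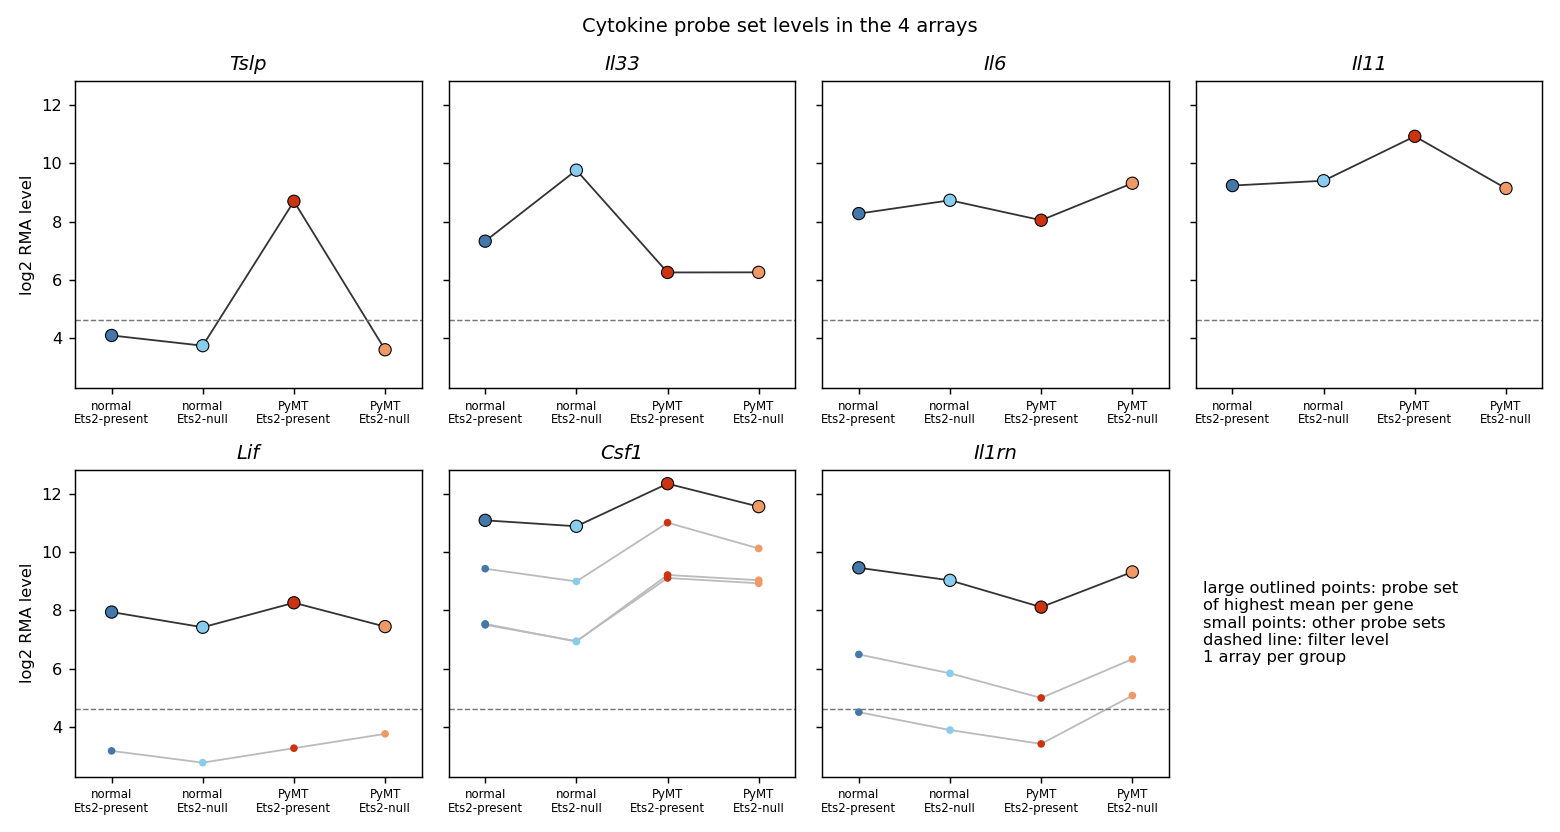
Log2 RMA level (vertical) of every probe set of the 7 cytokine genes in the 4 arrays (horizontal), 1 array per group, with lines as guides and the filter level of 4.63 dashed. Tslp stands above the dashed line in the PyMT Ets2-present array at 8.70 and below it in the other 3, while the 4 probe sets of Csf1 are all highest and the 3 of Il1rn all lowest in the PyMT Ets2-present array.

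Tslp had a log2 level of 4.10 with Ets2 and 3.75 without it in normal fibroblasts, and 8.70 with Ets2 and 3.61 without it in PyMT fibroblasts. Its 1 probe set was under the filter level in 3 arrays and far above it in the PyMT Ets2-present array. In fibroblasts of PyMT mice it was 34.1-fold lower without Ets2 (log2 difference -5.09), and 0 of the 8687 kept genes lay further down. With Ets2 it was 24.3-fold higher in PyMT than in normal fibroblasts, and 2 kept genes lay further up. Both folds and both ranks are set against levels under the filter level, and Tslp was kept only through its PyMT Ets2-present array. The log2 differences came to -4.07 and 4.07 once values under the filter level were set to it. Both use the PyMT Ets2-present array, so they are not separate evidence, and the study itself picked Tslp from these arrays for follow-up. It lists Tslp primers for quantitative RT-PCR and reports that most expression changes were verified in independent RNA from tumour fibroblasts. The result for Tslp alone is not given in its text. In the comparisons without that array Tslp differed by -0.35 and -0.14, values among low signals that have no order.

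The genes whose pattern over the 4 arrays was nearest to that of Tslp were sought by the Euclidean distance between log2 levels, each gene centred on its mean. Serpinb2, an inhibitor of plasminogen activators, was nearest with a distance of 0.49, and its levels were 3.81, 4.10, 8.88 and 3.86 in the same array order. The chemokine receptor Cxcr4 followed at 0.99 with 6.64, 5.65, 9.85 and 5.43. The matrix metalloproteinases Mmp13 (1.47) and Mmp10 (1.59) and the membrane-anchored Lypd1 (1.66) came next. These patterns stand on 4 values each, and for Tslp mostly on 1 array.

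**Figure D2:**
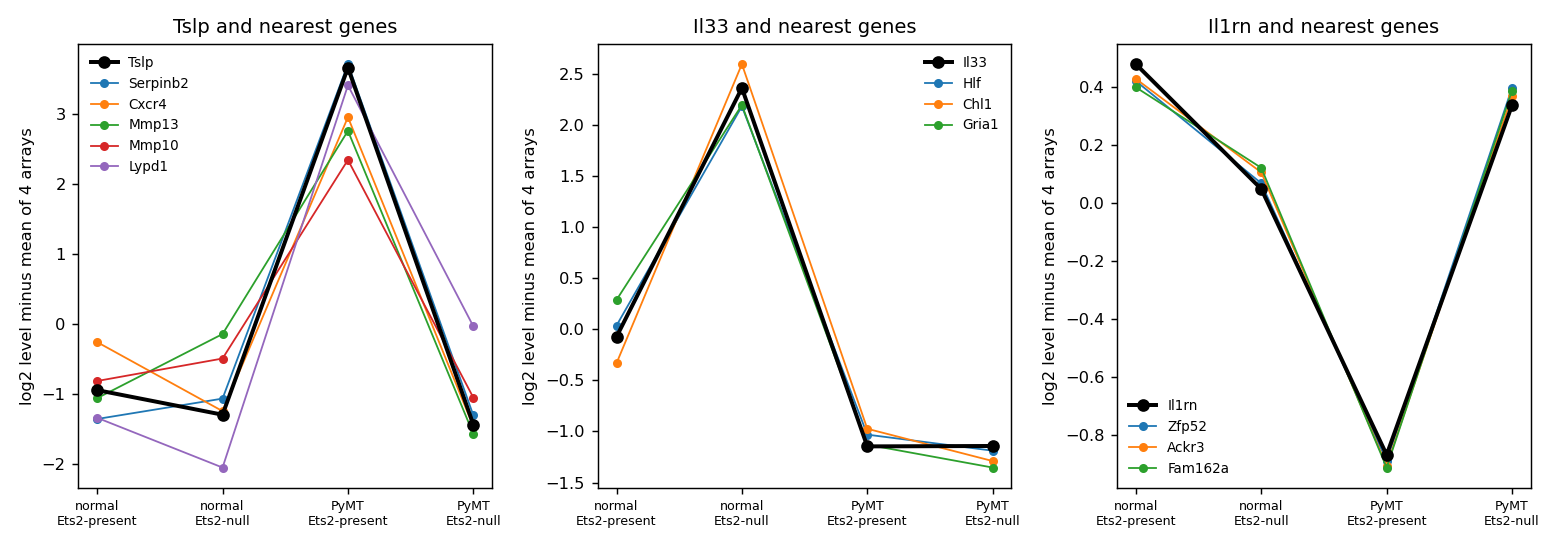
Log2 level minus the mean of the 4 arrays (vertical) for Tslp, Il33 and Il1rn in black, each with the kept genes of nearest pattern in colour, in the 4 arrays (horizontal), 1 array per group. The Tslp panel peaks in the PyMT Ets2-present array, the Il33 panel in the normal Ets2-null array, and the Il1rn panel has its low point in the PyMT Ets2-present array.

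Il11, a gp130 cytokine known for its part in bone and in tissue fibrosis, had the same shape as Tslp from a much higher floor. Its levels were 9.24 with Ets2 and 9.41 without it in normal fibroblasts, and 10.93 with Ets2 and 9.14 without it in PyMT fibroblasts. The 3 lower arrays lay within 0.26 of each other on this scale and the fourth stood apart. Il11 was 3.45-fold lower without Ets2 in PyMT fibroblasts (-1.79, with 131 kept genes further down) and 3.22-fold higher with PyMT in Ets2-present fibroblasts (1.69, with 133 further up). Unlike Tslp, it was well above the filter level in every array, so its floor was measured. A count of this shape, made after the values were seen, asked for an array at least 2-fold from the nearest other array while the other 3 lay within 2-fold. It found 79 kept genes, 0.909%, with the PyMT Ets2-present array above, Tslp and Il11 among them. The PyMT Ets2-null array stood apart in this way more often, above in 226 kept genes and below in 173, none of them among the 7. The nearest patterns to Il11 were those of Kcne2, Cst7 and Cxcl2, at distances of 0.13 to 0.21, each of which reached the filter level only in the PyMT Ets2-present array.

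Il6, the acute-phase cytokine of the family, had the opposite order in the PyMT arrays. It read 8.28 with Ets2 and 8.73 without it in normal fibroblasts, and 8.05 with Ets2 and 9.32 without it in PyMT fibroblasts. Both Ets2-null arrays were above both Ets2-present arrays, by 0.46 in normal and by 1.27 in PyMT fibroblasts, where Il6 was 2.41-fold higher without Ets2 and 392 kept genes lay further up. The first of these is smaller than the disagreement between probe sets and the second larger than it. The PyMT differences were -0.23 with Ets2 and 0.58 without it. Nat8f5, Tram2 and Sfxn4 had the nearest patterns, and Tram2 reached the filter level only in the PyMT Ets2-null array.

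Lif, which keeps stem cells undifferentiated in culture and acts in the uterus at implantation, varied least. Its brightest probe set read 7.94, 7.42, 8.26 and 7.44, with a span of 0.84, and the Ets2-null arrays lay 0.52 and 0.82 below their Ets2-present partners. Its other probe set lay between 2.78 and 3.76, under the filter level in all arrays, and went the other way in PyMT fibroblasts (0.49). No difference of Lif reached 2-fold. The 3 gp130 ligands thus did not share a direction: without Ets2 in PyMT fibroblasts Il11 was lower and Il6 was higher. Lif was lower too in its brightest probe set, but by less than 2-fold.

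Since the deleted protein is an ETS factor, and since Il11 differed from Il6 and Il1rn in direction, the 250 bases upstream of the most 3′ annotated start are shown for the 3 gp130 ligands and for Il1rn (RefSeq, GRCm38.p6). The windows are chr7:4778142-4778391 on the minus strand for Il11, chr5:30012864-30013113 on the plus strand for Il6, chr11:4257318-4257567 on the plus strand for Lif and chr2:24345121-24345370 on the plus strand for Il1rn. Capitals mark the letters of an ETS core (GGAA, or TTCC when it lies on the other strand) and of an AP-1 site (TGANTCA).
Il11: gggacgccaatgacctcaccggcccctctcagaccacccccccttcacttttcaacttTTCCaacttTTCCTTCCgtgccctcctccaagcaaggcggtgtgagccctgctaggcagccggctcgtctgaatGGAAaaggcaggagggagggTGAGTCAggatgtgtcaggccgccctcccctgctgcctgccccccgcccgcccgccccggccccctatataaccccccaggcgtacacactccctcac
Il6: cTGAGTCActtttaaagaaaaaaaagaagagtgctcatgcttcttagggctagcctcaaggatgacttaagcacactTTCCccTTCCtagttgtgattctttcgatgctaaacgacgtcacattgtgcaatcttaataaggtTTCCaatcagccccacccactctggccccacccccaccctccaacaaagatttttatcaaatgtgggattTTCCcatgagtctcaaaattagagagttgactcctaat
Lif: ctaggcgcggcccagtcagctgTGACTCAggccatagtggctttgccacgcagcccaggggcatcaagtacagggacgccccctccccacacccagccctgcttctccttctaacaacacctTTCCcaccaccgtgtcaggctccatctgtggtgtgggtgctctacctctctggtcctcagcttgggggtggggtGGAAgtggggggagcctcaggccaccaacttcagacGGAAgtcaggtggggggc
Il1rn: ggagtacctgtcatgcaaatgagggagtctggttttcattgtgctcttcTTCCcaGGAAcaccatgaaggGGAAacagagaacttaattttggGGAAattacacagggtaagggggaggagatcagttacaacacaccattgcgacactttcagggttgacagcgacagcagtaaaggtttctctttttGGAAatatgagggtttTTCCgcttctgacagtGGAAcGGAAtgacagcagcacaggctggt
The ETS core is short, and 93.4% of 32851 upstream windows of this length in the table hold it on either strand, with a median of 3 matches. The windows above hold 4 in Il11, 4 in Il6, 3 in Lif and 8 in Il1rn. These counts depend on the start: the other annotated start of Il11 has 0 ETS core and 0 AP-1 matches. The other starts of Il1rn have 4 and 3 ETS cores. The AP-1 letters stand in 6.75% of all windows, and each of the 3 gp130 ligands has 1 match, beginning 98 bases before the start in Il11, 249 in Il6 and 228 in Lif. The Il1rn window has none, and an AP-1 match begins 141 bases before the most 5′ of its 3 annotated starts. The NF-kB letters (GGG, any 2 bases, then TTTCC), whose last letters always hold an ETS core, occur in 1.41% of windows, with a match 44 bases before the start in Il6, 51 in Il1rn and 154 in Csf1. The STAT letters TTCNNNGAA, in 7.02% of all windows, have 0 matches in the 10 windows of the 6 genes that could be matched by symbol, and those windows of Il33 have no AP-1 or NF-kB match. Tslp had no window in the table. Matching letters do not show binding, and these letters were not tested against the differences.

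Csf1, the growth factor of macrophages, was the member with the most probe sets, and all 4 put the arrays in the same order. Its brightest probe set read 11.09 with Ets2 and 10.89 without it in normal fibroblasts, and 12.35 with Ets2 and 11.56 without it in PyMT fibroblasts. Both PyMT arrays were above both normal arrays. The PyMT difference with Ets2 was 1.26 (2.39-fold, with 308 kept genes further up) in that probe set and 1.58, 1.61 and 1.68 in the others. Without Ets2 it was 0.67 in the brightest probe set but 1.13, 1.98 and 2.10 in the others, so whether Csf1 passed 2-fold in Ets2-null fibroblasts depended on the probe set. Whether the PyMT difference was larger with or without Ets2 depended on it too. The Ets2 difference in PyMT fibroblasts was -0.79 and -0.88 in the 2 brighter probe sets and -0.18 in each of the 2 dimmer ones. Which Csf1 transcripts each probe set reads is not given in the sources used here. Fam126b, Pter and Fam20c had the nearest patterns, at distances of 0.06 to 0.13.

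Il33 followed neither Tslp nor Il11. Its levels were 7.33 with Ets2 and 9.77 without it in normal fibroblasts, and 6.26 with Ets2 and 6.26 without it in PyMT fibroblasts. The normal Ets2-null array stood highest, the normal Ets2-present array next, and the PyMT arrays lowest and level. In normal fibroblasts Il33 was 5.41-fold higher without Ets2 (2.44), and 10 kept genes lay further up. In PyMT fibroblasts the Ets2 difference was 0.004. Compared with normal fibroblasts, Il33 was 2.10-fold lower in PyMT Ets2-present cells (-1.07) and 11.3-fold lower in PyMT Ets2-null cells (-3.50, with 40 kept genes further down). The large values all use the normal Ets2-null array, since the other 3 arrays lay within 1.07. The nearest patterns were those of the transcription factor Hlf (0.24), the adhesion molecule Chl1 (0.42) and the glutamate receptor subunit Gria1 (0.45). Hlf was under the filter level in both PyMT arrays, and Chl1 and Gria1 reached it only in the normal Ets2-null array. Lum, the matrix proteoglycan lumican and a fibroblast marker, also stood highest in that array, with 9.26, 11.62, 6.73 and 5.82. The study's list of genes regulated by Ets2 in normal fibroblasts holds this Il33 probe set under another symbol, with Lum and Chl1. That list came from the same values and is not separate evidence.

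Il1rn, the antagonist among the 7, had the opposite order to Il11 in the PyMT arrays. The brightest probe set read 9.46 with Ets2 and 9.03 without it in normal fibroblasts, and 8.11 with Ets2 and 9.32 without it in PyMT fibroblasts. The PyMT Ets2-present array was the lowest in all 3 probe sets. In PyMT fibroblasts Il1rn was 2.31-fold higher without Ets2 (1.21, with 450 kept genes further up), and the other probe sets gave 1.33 and 1.66. With Ets2 it was 2.55-fold lower in PyMT than in normal fibroblasts (-1.35, with 279 further down), and the other probe sets gave -1.49 and -1.09. The dimmest probe set was under the filter level in 3 arrays. Zfp52, the chemokine scavenger receptor Ackr3 and Fam162a had patterns within 0.13 of that of Il1rn.

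Counted over the 7 genes at 2-fold, the Ets2 difference in normal fibroblasts held 0 lower and 1 higher gene (Il33), where 2.41% and 3.02% of all kept genes were lower and higher. In PyMT fibroblasts 2 were lower without Ets2 (Tslp and Il11) against 7.77% of all kept genes, and 2 were higher (Il6 and Il1rn) against 7.64%. With PyMT in Ets2-present fibroblasts 2 were lower (Il33 and Il1rn) against 6.23%, and 3 were higher (Tslp, Il11 and Csf1) against 5.42%. In Ets2-null fibroblasts 1 was lower with PyMT (Il33) against 11.2%, and 0 were higher against 9.69%. Nothing is read from these shares, since the genes were chosen from the same values. The median over the 7 genes was -0.20, -0.79, 0.32 and 0.02 in these 4 comparisons, beside -0.02, 0.02, -0.01 and 0.05 over all kept genes. The median of the Ets2 difference in PyMT fibroblasts is thus below 0 for a list with as many genes 2-fold higher as lower.

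**Figure D3:**
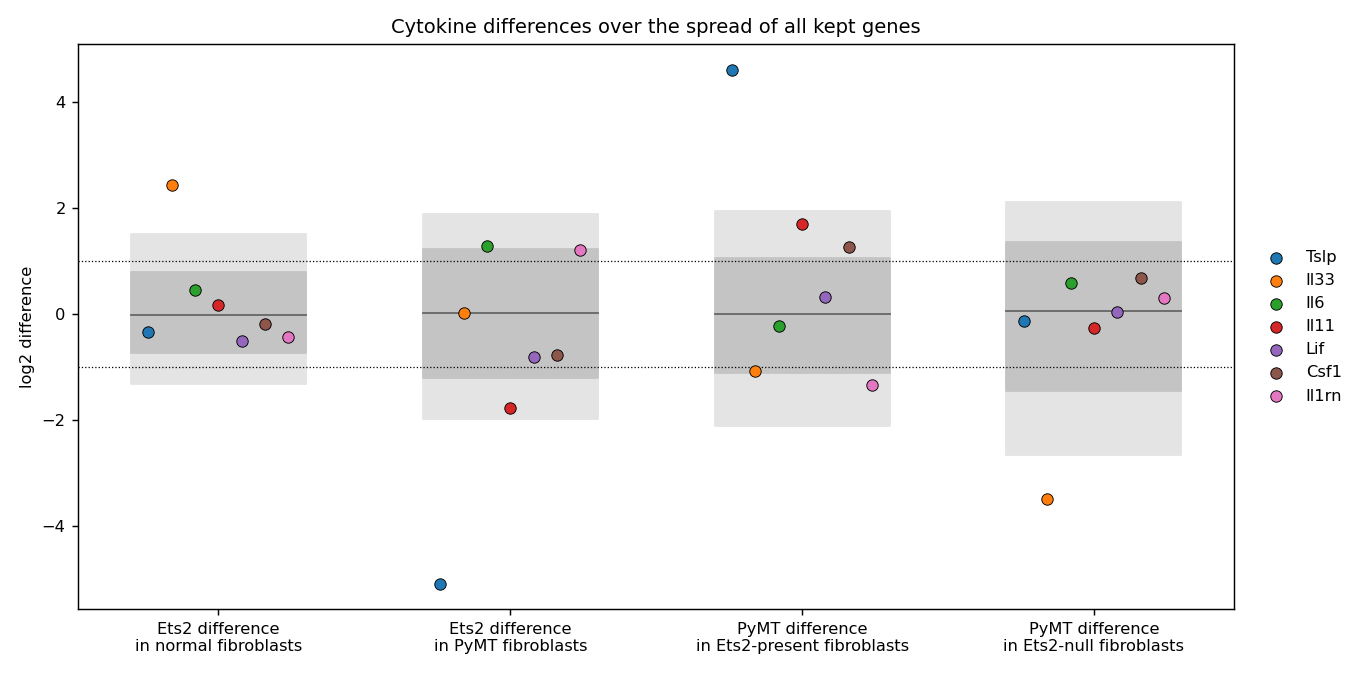
Log2 difference between 2 arrays (vertical) for the 7 cytokine genes (coloured points) in the 4 comparisons (horizontal). Dark grey spans the 5th to 95th and light grey the 1st to 99th percentile of the 8687 kept genes, the grey line is their median, and dotted lines mark 2-fold. Tslp at -5.09 and 4.60 and Il33 at 2.44 and -3.50 lie outside the light band, and the other points lie within it.

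Taking the Ets2 difference in normal fibroblasts away from that in PyMT fibroblasts gave a value that carries the error of all 4 arrays and disagreed between probe sets with an SD of 0.86. Il33 (-2.43) and Il11 (-1.95) were negative by more than this SD, beside Tslp. For Il33 the value came from the normal arrays and for Il11 from the PyMT arrays. Il1rn was positive (1.64, and 1.98 and 2.27 in its other probe sets), and Il6 (0.81), Csf1 (-0.58) and Lif (-0.30) lay within 1 SD. Csf1 had opposite signs in its brighter and dimmer probe sets, which gave -0.58 and -0.45 against 0.43 and 0.38.

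The receptor genes of these ligands were read from the same arrays. Of 11 receptor genes, 9 were on the array with a probe set of their own and 8 were kept. Il7r, the partner of Crlf2 in the Tslp receptor, was under the filter level in all arrays (2.93 to 3.23), while Crlf2 itself lay between 8.39 and 9.01 with no difference of 2-fold. The interleukin 33 receptor Il1rl1 and the interleukin 11 receptor Il11ra1 had no such probe set and were not analysed here.

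Il6st, the chain shared by Il6, Il11 and Lif, read 10.85 with Ets2 and 10.75 without it in normal fibroblasts, and 9.66 with Ets2 and 10.87 without it in PyMT fibroblasts. It was lowest in the array where Il11 was highest. Il6st was 2.31-fold higher without Ets2 in PyMT fibroblasts (1.21) and 2.28-fold lower with PyMT in Ets2-present fibroblasts (-1.19), and its other probe sets gave 0.82 and 1.80, and -0.61 and -1.80. It was 1 of 62 kept genes, 0.714%, with the PyMT Ets2-present array alone below the others by the rule above. Lifr lay between 9.10 and 9.82. Il6ra read 6.70, 5.75, 5.22 and 6.01, but its other probe set, at 4.51 or lower, had the opposite sign in 3 of 4 comparisons.

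Csf1r, the receptor of Csf1, read 6.95, 6.54, 8.12 and 6.19, highest in the PyMT Ets2-present array. It was 3.81-fold lower without Ets2 in PyMT fibroblasts (-1.93, and -1.89 and -1.65 in the other probe sets) and 2.25-fold higher with PyMT in Ets2-present fibroblasts (1.17). Csf1 itself stayed above both normal arrays in the PyMT Ets2-null array, and Csf1r did not. Csf1r is a macrophage gene, and other macrophage markers, but not all, stood highest in the same array. These were Adgre1, Lyz2, Tyrobp, Msr1, Mrc1, Laptm5 and Aif1. Cd68 (4.98) and Cd14 (5.88) were highest in the normal Ets2-null array, and Fcer1g (5.90) in the PyMT Ets2-null array. Of 13 such markers, Csf1r included, 12 were kept. In PyMT fibroblasts 4 were at least 2-fold lower and 0 higher without Ets2, against 7.77% and 7.64% of all kept genes. Csf1r itself was among the 4, as was Cd68, which was under the filter level in both PyMT arrays. The Ets2 difference in PyMT fibroblasts was below 0 for 10 of the 12 markers, with a median of -0.61. With PyMT in Ets2-present fibroblasts 0 markers were lower and 5 higher, against 6.23% and 5.42% of all kept genes. In Ets2-null fibroblasts 2 were lower and 3 higher with PyMT, against 11.2% and 9.69%. The summed level of the kept markers on the linear scale, with Csf1r and Lyz2 included, was 569.5, 498.1, 1279 and 887.5 in the same array order. Msr1 read 5.004, 4.697, 6.163 and 3.879 and Adgre1 4.45, 4.27, 6.17 and 4.52, while Lyz2 was the same in both PyMT arrays (9.13 and 9.09), Ptprc was highest in the PyMT Ets2-null array (4.92) and Itgam lay under the filter level in all 4. The part of macrophages in the levels of Tslp, Il11, Csf1 and the other genes was not tested, and fewer cells of a type cannot be told apart from less RNA per cell in such bulk samples.

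Of the IL-1 receptor genes, Il1r1 was at least 2-fold lower in both PyMT arrays than in the normal array of the same Ets2 status. Il1r1, the signalling receptor that Il1rn blocks, read 11.47 and 11.84 in normal and 10.21 and 10.39 in PyMT fibroblasts, with the Ets2-present array first in each pair. Its PyMT differences were -1.27 with Ets2 and -1.44 without it, and its Ets2 differences were 0.36 and 0.18. Il1r2, a decoy receptor, read 5.61, 6.76, 4.68 and 5.47 and, like Il33, was highest in the normal Ets2-null array. Il1rap, the accessory chain used by IL-1 and Il33 receptors, lay between 7.65 and 8.15 in its brightest probe set, while its other probe sets disagreed with it and were under the filter level in the PyMT Ets2-null array. Over the 8 kept receptors, 0 were 2-fold lower and 1 higher for the Ets2 difference in normal fibroblasts, 1 and 1 for that in PyMT fibroblasts, 3 and 1 for the PyMT difference with Ets2, and 2 and 0 for that without it. Of all kept genes, 2.41% and 3.02%, 7.77% and 7.64%, 6.23% and 5.42%, and 11.2% and 9.69% were lower and higher in these comparisons. The medians were 0.16, 0.14, -0.56 and -0.12 for the receptors, beside -0.02, 0.02, -0.01 and 0.05 over all kept genes.

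**Figure D4:**
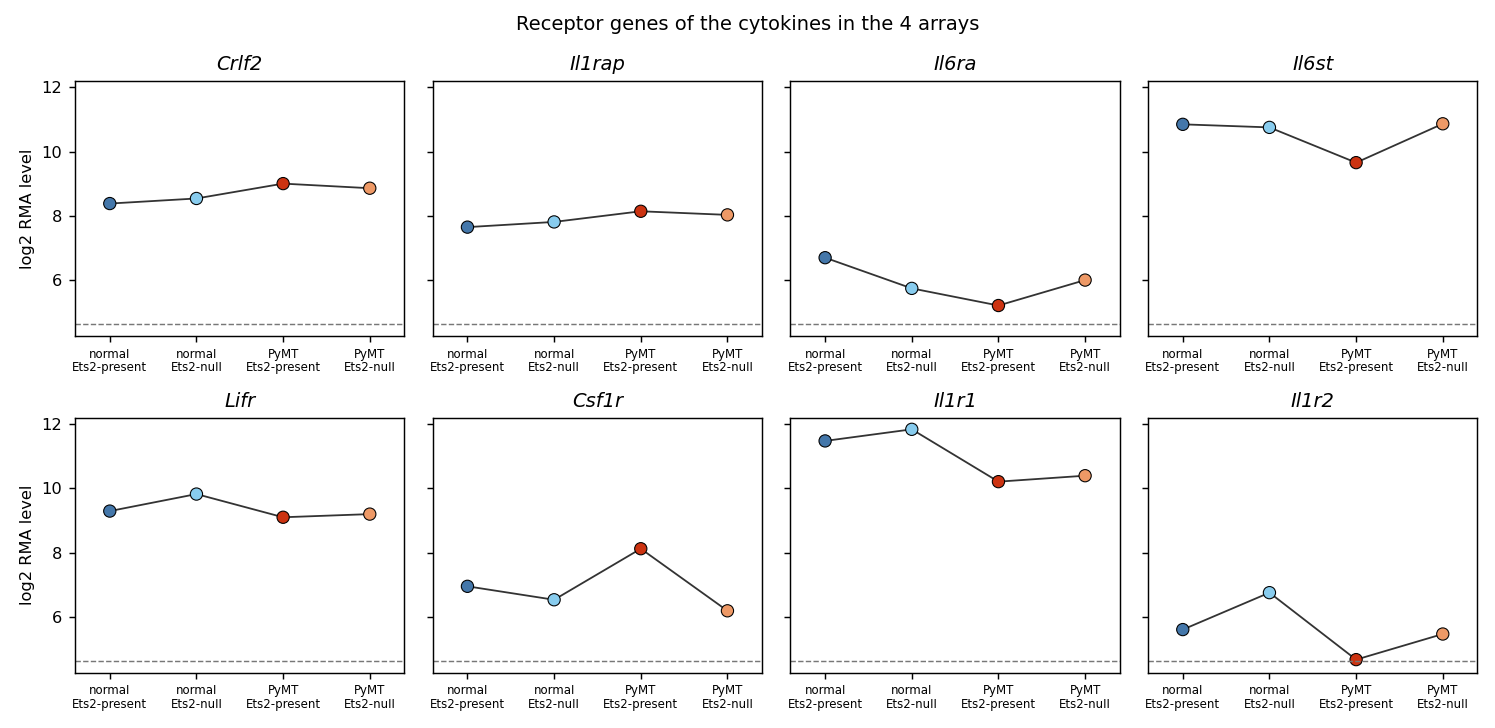
Log2 RMA level (vertical) of the brightest probe set of the 8 kept receptor genes in the 4 arrays (horizontal), 1 array per group, with lines as guides and the filter level dashed. Il6st has its low point (9.66) and Csf1r its high point (8.12) in the PyMT Ets2-present array, and Il1r1 is lower in both PyMT arrays than in the normal ones.

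Other ligands of the same families were mostly under the filter level. Of the 3 further IL-6 family genes with a probe set of their own, 2 were kept. Clcf1, a gp130 ligand that acts through the ciliary neurotrophic factor receptor, read 5.91, 5.71, 7.53 and 4.67. Like Il11 it was highest in the PyMT Ets2-present array, 7.24-fold lower there without Ets2 (-2.86) and 3.07-fold higher with PyMT in Ets2-present fibroblasts (1.62). Ctf1, cardiotrophin, read 7.17, 7.60, 6.39 and 7.59 and, like Il6, was higher without Ets2 in PyMT fibroblasts (1.20). Of the further IL-1 family genes 1 of 5 was kept, Il18, with no difference of 2-fold, and Il1a and Il1b, the agonists that Il1rn opposes, were under the filter level in all arrays. Of the further colony-stimulating and hematopoietic growth factors 1 of 4 was kept, Kitl (8.88 to 9.55), and Csf2 and Csf3 were under the filter level.

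Of 26 other cytokines on the array, 2 were kept, and the type 2 cytokines Il4, Il5 and Il13 and the inflammatory cytokine Tnf were under the filter level. Tnfsf11, the osteoclast factor RANKL, read 8.41, 9.95, 6.18 and 6.76. Its order resembled that of Il33, with the normal Ets2-null array highest by 1.53, and PyMT differences of -2.24 with Ets2 and -3.19 without it. Il16 read 5.03 and 5.44 in normal fibroblasts and was under the filter level in both PyMT arrays. The kept cytokine genes of these lists were thus the 7 genes described here with Clcf1, Ctf1, Il18, Kitl, Tnfsf11 and Il16.

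Signalling genes downstream of these receptors were counted as a fixed list. Of 20 kept genes of JAK-STAT signalling and its feedback, 0 were 2-fold apart for the Ets2 difference in normal fibroblasts, 2 were lower and 0 higher for that in PyMT fibroblasts, 1 was lower and 0 higher for the PyMT difference with Ets2, and 3 were lower and 1 higher for that without it. Of all kept genes, 2.41% and 3.02%, 7.77% and 7.64%, 6.23% and 5.42%, and 11.2% and 9.69% were lower and higher in these comparisons. The medians were 0.14, 0.13, -0.16 and -0.07 for the list, beside -0.02, 0.02, -0.01 and 0.05 over all kept genes. The signal transducers themselves were near level, with Stat3 between 9.32 and 9.62 and Jak2 between 11.02 and 11.15. Socs2 and Cish, cytokine-induced inhibitors best known downstream of Stat5, were lowest in the PyMT Ets2-null array. Socs2 read 9.46, 9.58, 9.07 and 7.05, and Cish 7.09, 7.97, 6.75 and 5.51. Socs3, the feedback inhibitor of gp130, read 8.45, 9.28, 7.63 and 8.29, lowest where Il11 was highest, with no difference of 2-fold. Bcl3, a partner of NF-kB that STAT signals induce, was lower in the PyMT arrays (6.06, 6.90, 4.88 and 4.27), the last under the filter level. Tyk2 was higher in them (4.36, 4.61, 5.28 and 6.01), with both normal arrays under the filter level.

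Of 15 kept NF-kB factors and feedback genes, 0 were lower and 1 higher for the Ets2 difference in normal fibroblasts, 1 and 1 for that in PyMT fibroblasts, 3 and 1 for the PyMT difference with Ets2, and 2 and 0 for that without it. Of all kept genes, 2.41% and 3.02%, 7.77% and 7.64%, 6.23% and 5.42%, and 11.2% and 9.69% were lower and higher in these comparisons. The medians were 0.10, 0.22, 0.15 and -0.09 for the list, beside -0.02, 0.02, -0.01 and 0.05 over all kept genes. Icam1, an adhesion molecule induced through NF-kB, was lower in the PyMT arrays (8.15, 8.99, 6.01 and 6.56) and highest, like Il33 and Tnfsf11, in the normal Ets2-null array. Birc3, an inhibitor of cell death, read 6.69, 5.94, 5.02 and 6.09, lowest in the PyMT Ets2-present array like Il1rn. Relb, a subunit of the noncanonical pathway, read 4.88, 4.94, 5.41 and 4.04, and the adaptor Myd88, which Il33 and IL-1 receptors use, read 6.42, 6.56, 6.16 and 5.36.

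**Figure D5:**
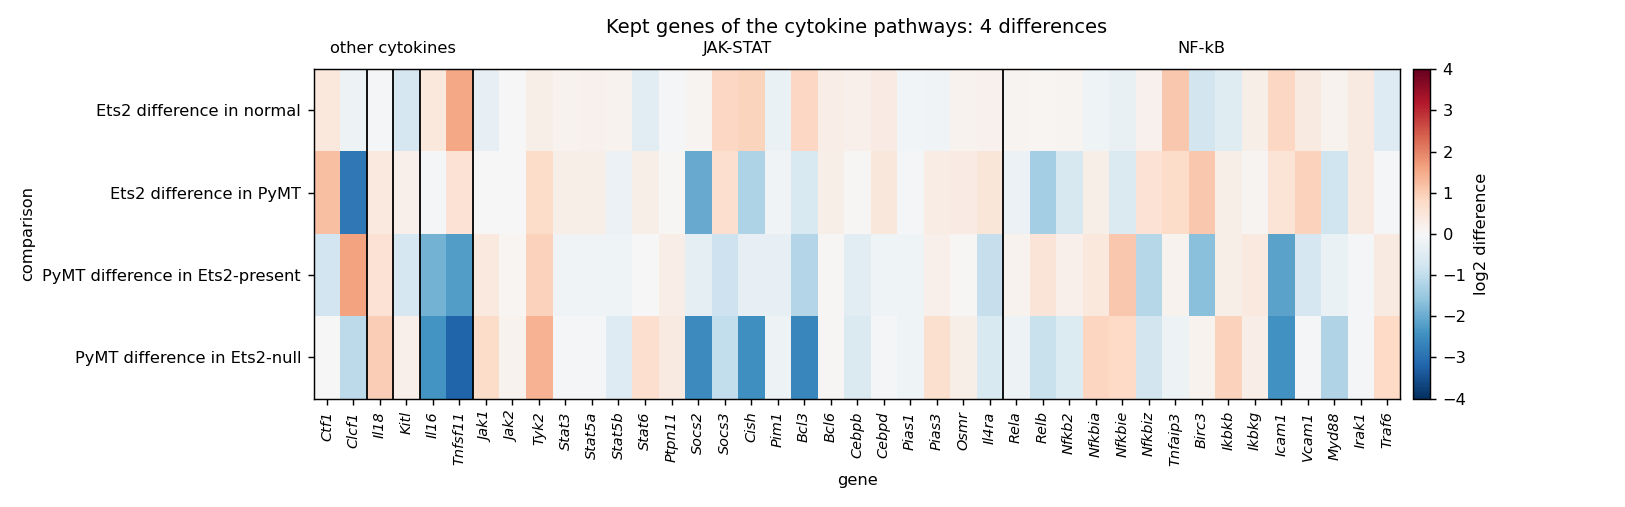
Log2 difference between 2 arrays (colour, red higher and blue lower in the first-named condition) for the kept genes of the pathway lists (horizontal) in the 4 comparisons (vertical). Here the Ets2 difference is Ets2-null minus Ets2-present and the PyMT difference PyMT minus normal. Clcf1 is darkest blue for the Ets2 difference in PyMT fibroblasts (-2.86) and Tnfsf11 for the PyMT difference in Ets2-null fibroblasts (-3.19), while most JAK and STAT genes are pale.

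Other cell types that a fibroblast culture could hold, or that answer to Tslp and Il33, were looked for by their markers. T and NK cell markers were kept in 0 of 7 genes. Of 9 mast cell and basophil markers 3 were kept, and the defining Fcer1a, Ms4a2, Cpa3 and Kit were under the filter level in all arrays. Mcpt8, a basophil protease, nevertheless read 7.27, 6.09, 8.64 and 4.49, highest in the array where Tslp was highest, while Cma1 and Hdc reached at most 4.67 and 5.12. Of 10 epithelial markers 5 were kept, with Cdh1 under the filter level and Epcam at 5.10 or lower, and their summed linear levels were 349.5, 182.6, 247.6 and 271.0 in the same array order. Krt18 read 8.05, 6.72, 4.23 and 4.49 and Krt19 4.98, 4.39, 7.36 and 7.21. Of 8 endothelial markers 2 were kept, Kdr and Tek, and Pecam1 and Cdh5 were under the filter level. Among adipocyte markers only Fabp4 was kept, at 7.64, 6.82, 9.96 and 10.00, higher in both PyMT arrays as Csf1 was, and Adipoq was under the filter level. The pericyte markers were kept in 5 of 5 genes, with Mcam at 6.18, 5.16, 7.12 and 8.90. Rgs5 (6.36) and Notch3 (7.21) were, like Mcam, highest in the PyMT Ets2-null array. Cspg4 went the other way, at 4.60, 4.11, 5.27 and 3.84, and Acta2 lay between 13.05 and 13.30. The fibroblast markers were not level in all cases either: Fap read 6.54, 5.55, 7.67 and 5.30, highest in the PyMT Ets2-present array, and Dcn 11.86, 12.49, 10.76 and 10.07. Pdgfra was instead lowest in the PyMT Ets2-present array, at 11.82, 11.94, 10.18 and 11.59. Thy1 was lowest in the PyMT Ets2-null array, at 9.24, 9.44, 8.79 and 7.54. The part of these differences in the cytokine levels was not tested.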

How the data were processed

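The authors deposited log2 probe set levels made by RMA, with no version stated, for 4 arrays, 1 per group by the sample labels. RMA corrects background and normalizes between arrays, so a shift common to most transcripts is removed. Of 22690 probe sets, 20393 had 1 gene, 691 several and 1606 none, and 20364 matched the mouse annotation by Entrez ID. Levels of different probe sets were compared to choose the brightest, to filter, to sum marker levels and to call levels high or low. In the main results each difference between arrays was taken within a probe set. The highest-mean probe set stood for a gene, kept if its highest array reached percentile 40, and 2-fold (1 on the log2 scale) was the threshold. An array number of 4 limits the precision, and no test was run: an additive fit would leave 1 residual degree of freedom. Genes named besides the 7 were all kept receptors, the 5 nearest patterns to Tslp and 3 to others spanning at least 2-fold, and up to 4 genes per list with the largest difference of at least 2-fold. Genes given beyond this as list context were picked after their values were seen. The members and lists were chosen with earlier results of these data known. Alternatives were a 60th percentile filter, no filter, low values raised to the filter level, and the mean of probe sets. The others were the use of only probe sets with the plain ending _at, and quantile, cyclic loess and median rescaling. Python 3.11.15, pandas 2.3.3, numpy 2.4.6, matplotlib 3.10.9, R 4.3.3 and limma 3.58.1 were used, and scripts were tested on simulated data.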

Additional observations from a re-analysis of the deposited data

How the results depend on the processing

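Over all alternatives, Il33 ranged from 2.44 to 2.51 in normal fibroblasts, and in PyMT fibroblasts the Ets2 difference ranged from -1.79 to -1.68 for Il11, 1.26 to 1.37 for Il6 1.19 to 1.40 for Il1rn and -0.82 to -0.16 for Lif. With low values raised to the filter level, Tslp was -4.07 for the Ets2 difference in PyMT fibroblasts and 4.07 for the PyMT difference with Ets2. With the mean of the probe sets, Csf1 reached 1.47 in Ets2-null fibroblasts, so 1 member was higher there. Shares of all kept genes moved with the stricter filter and with raised low values: lower without Ets2 in normal fibroblasts 0.972% and 1.20%, higher 1.35% and 1.65%, higher in PyMT fibroblasts 3.74% and 4.33%, higher with PyMT and Ets2 3.34% and 3.61%, and without Ets2 5.35% and 6.02%. No value at or past 2-fold changed direction under any alternative run. Csf1 has no value where only probe sets with the plain ending _at were used, since its own end in _a_at or _x_at. With 1 array per group no array could be left out. No paired analysis was possible because each group has 1 array. For Tslp, signal near background in 3 arrays is the limit.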
